A study of Mus musculus with 4 samples.

Results

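The genes described here are 10 parts of 1 epithelial system: the serine proteases St14 (matriptase), Tmprss2, Tmprss3, Tmprss6 (matriptase-2) and Prss8 (prostasin), the inhibitors Spint1 and Spint2, and the 3 subunits of the epithelial sodium channel, Scnn1a, Scnn1b and Scnn1g. They were taken by gene symbol, and all 10 were found among the 27998 genes of the count matrices. Their transcripts were followed in inner ear organoids, which are 3-dimensional cultures grown from mouse embryonic stem cells that form otic epithelium with hair cells beside many other tissues. The labels give 4 groups, each with 1 library: wild-type (WT) R1/E organoids at day 25 and at day 35, and knockout (KO) organoids labelled Tmprss3KO-GFPKI at day 25 and at day 35. All 4 share the derived strain 129X1x129S1. The sources used here do not give whether the KO line is 1 clone, how many organoids were pooled, or which bases of Tmprss3 were changed.

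Matriptase and prostasin act together at the surface of epithelial cells, each able to take part in activating the other, and the Kunitz-type inhibitors encoded by Spint1 and Spint2 hold them in check. Membrane serine proteases can also cleave the α and γ subunits of the sodium channel, which raises the share of time that it stays open, and the channel draws sodium from fluid at the apical surface of skin, airway, kidney and inner ear epithelia. Tmprss3 is needed for hearing in mice and humans, and Tmprss6 is best known in liver, where it lowers hepcidin by acting on hemojuvelin.

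The 5 proteases share a short stretch of residues around the catalytic serine. The coding bases around it are shown to let the family likeness be seen: each run of 63 bases is read 5′ to 3′ on the coding strand from GENCODE M21 transcripts (GRCm38), spans 2 exons, and has 18 bases, the serine codon and its neighbours, in capitals.
St14 (chr9:31089989-31090425, minus strand): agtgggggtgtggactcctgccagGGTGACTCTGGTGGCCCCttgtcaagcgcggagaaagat
Tmprss2 (chr16:97567137-97567619, minus strand): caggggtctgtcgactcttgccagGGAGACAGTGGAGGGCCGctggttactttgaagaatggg
Tmprss3 (chr17:31183928-31184592, minus strand): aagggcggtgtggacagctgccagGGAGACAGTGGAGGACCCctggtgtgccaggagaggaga
Tmprss6 (chr15:78440334-78440631, minus strand): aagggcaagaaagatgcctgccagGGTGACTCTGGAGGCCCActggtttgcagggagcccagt
Prss8 (chr7:127926602-127926768, minus strand): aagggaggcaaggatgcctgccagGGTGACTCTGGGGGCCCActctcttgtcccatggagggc
Over these 63 bases, identity between pairs ran from 54.0% (Prss8 and Tmprss2) to 68.3% (Prss8 and Tmprss6). The serine codon was TCT in St14, Tmprss6 and Prss8 and AGT in Tmprss2 and Tmprss3. It lay in the last exon of the transcript used for St14 (exon 19), Tmprss6 (exon 18) and Prss8 (exon 6), and in the exon before the last for Tmprss2 (exon 13) and Tmprss3 (exon 12).

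The genes lie on 7 chromosomes. On GRCm38 the annotation places St14 at chr9:31089402-31131853, Tmprss2 at chr16:97564682-97611195, Tmprss3 at chr17:31179265-31198977, Tmprss6 at chr15:78439667-78468634 and Prss8 at chr7:127925716-127930104, all on the minus strand. Spint1 is at chr2:119237362-119249527 on the plus strand and Spint2 at chr7:29256323-29281912 on the minus strand. Scnn1a is at chr6:125320659-125344943, and Scnn1g (chr7:121734479-121768475) and Scnn1b (chr7:121865038-121918514) are close together, all on the plus strand. St14, Prss8 and Scnn1b overlap a gene on the opposite strand (Gm16071, Kat8 and Cog7). No source used here names the strand used in counting, so reads of these pairs may not be told apart.

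Counts are unique molecular identifiers (UMIs), each a single captured transcript end. Barcodes with at least 500 genes and at most 10% mitochondrial UMIs were kept: 9768 of 9963 in WT day 25, 11190 of 11307 in KO day 25, 8166 of 9250 in WT day 35 and 6729 of 7077 in KO day 35. The median kept barcode held 6167 UMIs in WT day 25, 6371 in KO day 25, 3089 in WT day 35 and 4420 in KO day 35, so the WT library of the later day was the shallowest. Between 66 and 136 kept barcodes were shared by any pair of libraries. Levels are CPM, which divides a gene’s UMIs by all UMIs of the sum and scales them to a fixed total, over the summed UMIs of a class in a library. Their 95% intervals (exact Poisson for levels, exact binomial for shares, conditional binomial for ratios) cover counting error only. With 1 library per group no test between groups was made, and no difference below is separated from differences between cultures, clones or library preparations.

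The cells fell into 27 clusters, made without the 10 genes. Hair cell-like cells (cluster 24, led by Ccer2, Acbd7 and Cabp2) numbered 19, 11, 60 and 35 in WT day 25, KO day 25, WT day 35 and KO day 35. Other otic epithelium-like cells formed cluster 10, called here the Otoa cluster (64, 115, 434 and 696 cells), and cluster 12, the Otol1 cluster (121, 50, 479 and 503 cells). Most otic cells of day 25 were thus in the Otol1 cluster in WT and in the Otoa cluster in KO. Keratinocyte-like cells were in the Krtdap cluster (493, 217, 131 and 143 cells) and in the Krt71 cluster (123, 116, 8 and 24 cells), which hair-follicle keratins led. Cluster 9, simple epithelium-like (260, 84, 689 and 277 cells), had Cldn10, Lect1 and Napsa among its leading genes, and its name rests on Krt18, Cldn3, Krt8, Cldn7 and Cldn4, none of them in its first 10 genes. The split of the classes into these clusters was made after levels by cluster had been seen. The KO day 35 library stood apart by a pluripotent-like cluster, which had 318 cells there, 13 and 2 at day 25 and none in WT day 35.

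The 10 genes were mostly read from a small part of the cells. The otic, keratinocyte and simple epithelial classes together held 11.1%, 5.30%, 22.1% and 24.9% of the cells of WT day 25, KO day 25, WT day 35 and KO day 35. They held 83.7%, 86.7%, 91.9% and 82.1% of the UMIs of St14. For Prss8 they held 84.8%, 84.1%, 94.2% and 81.8%, and for Spint1 84.8%, 91.3%, 93.7% and 86.5%. Spint2 was less restricted, at 74.2%, 63.0%, 83.2% and 85.5%. The lowest share of a gene with more than 20 UMIs in a library was that of Scnn1a in KO day 25, where 48 of 89 UMIs lay in other cells.

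**Figure D1:**
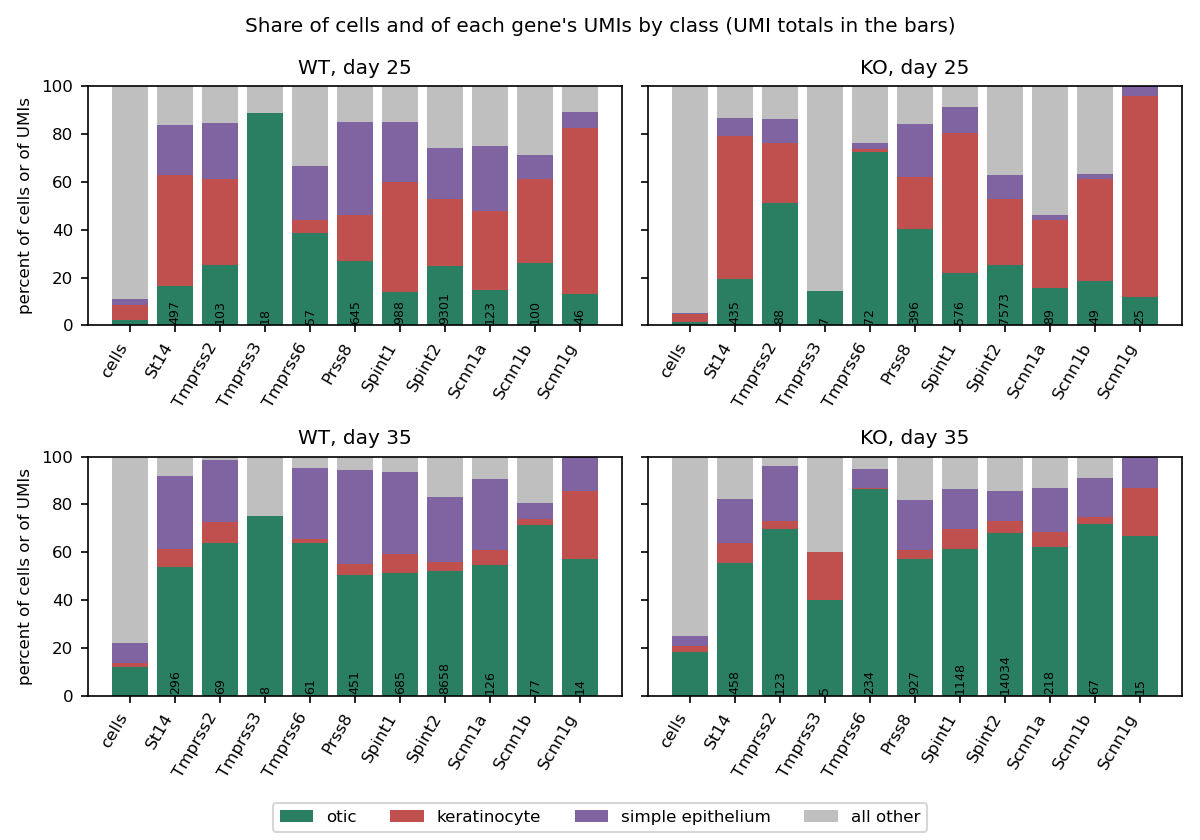
Stacked bars give, for each library, the percent of kept cells and of each gene's UMIs that lie in the otic, keratinocyte, simple epithelium and all other classes, with the number of UMIs printed in each bar. The first bar of each panel shows that the 3 epithelial classes held 5.30% to 24.9% of the cells, while most bars of the genes are coloured.

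As a description, since the clusters come from the same cells, each class was set against all other cells of its library. Of the 8 members with enough UMIs in every library, all 8 were at least 2-fold higher in otic cells in all 4 libraries, against a background of 7.44% of 13755 genes. In keratinocyte-like cells 3 of 8 were (St14, Spint1 and Scnn1a; background 2.89%), and in simple epithelium-like cells 5 of 8 (St14, Tmprss2, Prss8, Spint1 and Spint2; background 6.21%). Tmprss3 and Scnn1g had too few UMIs for this count.

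The proteases differed in level between the epithelia. St14 was read in all of them: over the 4 libraries it stood at 36.0 CPM (32.0 to 40.3) in the Otoa cluster, 33.3 (29.4 to 37.5) in the Otol1 cluster, 39.3 (35.1 to 44.0) in simple epithelium, 39.9 (35.6 to 44.4) in the Krtdap cluster and 77.7 (67.9 to 88.4) in the Krt71 cluster. The neighbours in this order overlapped except for the Krt71 cluster, which was the highest. Most Krt71 UMIs of St14 came from KO day 25 (158 of 228). In WT day 25 the Krt71 and Krtdap clusters stood at 45.9 and 38.2 CPM. Hair cell-like cells were the exception, with 8 St14 UMIs in all (6 of them in WT day 25), or 9.87 CPM (4.26 to 19.5), and their interval did not reach those of the other otic clusters. Outside the epithelia St14 was at or below 5.53 CPM in every cluster but the pluripotent-like one, at 11.8 CPM (9.12 to 15.1).

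Prss8 was highest in simple epithelium (89.8 CPM, 83.3 to 96.7), intermediate in the Otoa (66.2) and Otol1 (64.3) clusters, whose intervals overlapped, and lower in the Krtdap (28.0) and Krt71 (12.6, 8.88 to 17.4) clusters. Tmprss2 was highest in the Otoa cluster (16.3 CPM, 13.7 to 19.3), with 10.0 in simple epithelium, 8.36 in the Krtdap cluster and 7.86 in the Otol1 cluster, and had 1 UMI in the Krt71 cluster. Tmprss2 and Prss8, which encode a transmembrane and a lipid-anchored protease, thus ran low in the Krt71 cluster. The St14 sum was highest there, mostly from the KO day 25 library. These orders are of sums over the 4 libraries and differed within single libraries. In WT day 35 Prss8 was slightly higher in the Otol1 cluster than in simple epithelium, and lower in the Otoa cluster than in both. In KO day 35 Tmprss2 was higher in simple epithelium than in otic cells as a whole.

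Tmprss6 was highest in the otic clusters in the sums over the 4 libraries. It stood at 19.8 CPM (16.9 to 23.0) in the Otoa cluster, 17.1 (14.3 to 20.2) in the Otol1 cluster, 13.6 (6.78 to 24.3, 11 UMIs) in hair cell-like cells and 6.60 (4.93 to 8.65) in simple epithelium. The otic intervals overlapped and that of simple epithelium lay below those of the Otoa and Otol1 clusters. These sums pool the genotypes, and simple epithelium-like cells came mostly from WT. Otic cells as a whole held 8.64 CPM in WT day 25, 26.5 in KO day 25, 8.25 in WT day 35 and 25.0 in KO day 35. The WT values were thus nearer to that of simple epithelium. The Krtdap and Krt71 clusters had 4 and 2 UMIs, and the highest other cluster was adipocyte-like, at 1.73 CPM.

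The inhibitor Spint1 was high in all epithelial clusters, from 40.7 CPM (28.0 to 57.2) in hair cell-like cells and 65.8 in the Otol1 cluster to 93.8 in simple epithelium and 96.1 (85.2 to 108.0) in the Krt71 cluster. In WT day 25 alone Spint1 was lower in the Krt71 than in the Krtdap cluster (62.7 and 83.4 CPM). Spint2 ran in another order: 1213 CPM (1189 to 1237) in the Otol1 cluster, 946 in the Otoa cluster, 874 in simple epithelium, 620 in hair cell-like cells, 568 in the Krtdap cluster and 375 (353 to 398) in the Krt71 cluster. Only the hair cell-like and Krtdap intervals overlapped among these. Spint2 was also the one member read in every cluster at more than a trace, from 16.4 CPM in a fibroblast-like cluster to 142 in cluster 25, which Otos and Otor led. The ratio of Spint2 to Spint1 UMIs was taken up after these levels were seen. Among the 6 epithelial clusters it ran from 3.90 in the Krt71 cluster and 7.03 in the Krtdap cluster to 18.4 in the Otol1 cluster, and elsewhere it reached 68.6 (cluster 0). By library it was 16.6, 15.3, 12.8 and 13.5 in otic cells and 5.75, 6.20, 6.17 and 7.31 in keratinocyte-like cells (WT day 25, KO day 25, WT day 35, KO day 35), so the otic value exceeded the keratinocyte value in each of the 4. A ratio of 3′ counts compares classes and does not give the relative amount of the transcripts.

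Epithelial cells with an St14 UMI mostly held a UMI of an inhibitor too. In the Otoa cluster of KO day 35, 128 of 129 St14-positive cells had a UMI of Spint1 or Spint2, against 559 of 567 cells without St14. In all other cells, 33 of 73, 18 of 53, 10 of 24 and 58 of 75 St14-positive cells did (WT day 25, KO day 25, WT day 35, KO day 35), the last in the library with the pluripotent-like cluster. Deeper cells show more of every gene, and in that Otoa cluster cells without St14 were nearly as often positive, so these shares describe where both are read and show no pairing within a class.

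The channel subunits were unequal across the epithelia. Scnn1a, the α subunit that the channel cannot do without, ran from 16.9 CPM in the Otol1 cluster and 14.2 in simple epithelium to 11.1 in the Otoa cluster, 9.47 in the Krtdap cluster and 3.41 (1.63 to 6.27) in the Krt71 cluster. Scnn1b, the β subunit, was highest in the Otol1 cluster at 14.2 CPM (11.8 to 17.1), against 7.13 (5.42 to 9.22) in the Krtdap cluster, 3.43 in simple epithelium and 2.52 (1.56 to 3.85) in the Otoa cluster. Scnn1g, the γ subunit and a protease target, was highest in the Krtdap cluster at 6.64 CPM (4.99 to 8.67), against 1.96 (1.12 to 3.19) in the Otol1 cluster and 1.32 in the Otoa cluster, with 0 UMIs in hair cell-like cells. The β and γ subunits, whose genes are close together, therefore peaked in different epithelia in the sums over the 4 libraries. These sums pool libraries whose shares of the clusters differed, and the order within each library is not given here.

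**Figure D2:**
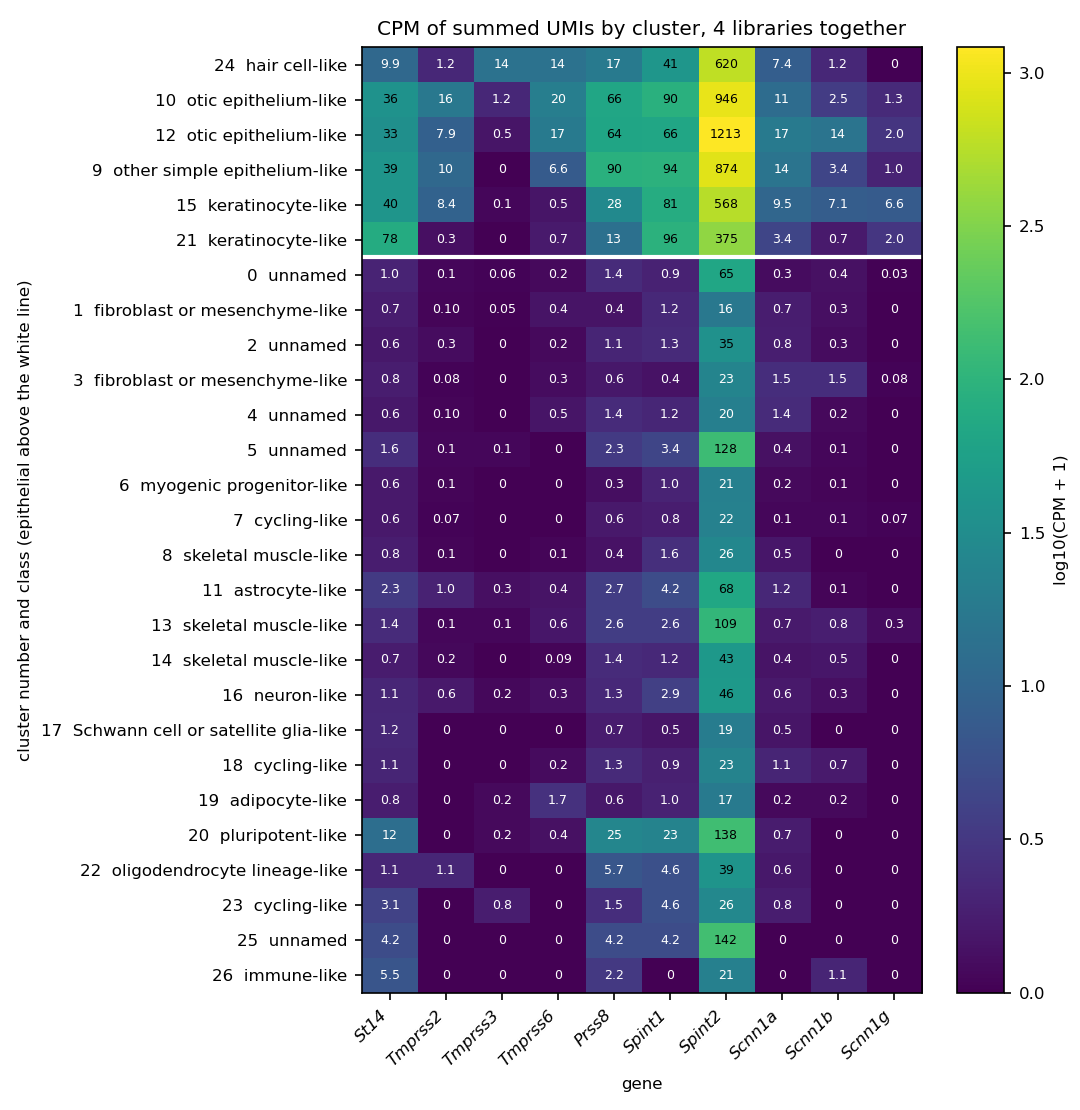
Each row is a cluster and each column a gene, and the number and colour give CPM of summed UMIs over the 4 libraries, coloured as log10(CPM + 1). The 6 epithelial clusters above the white line hold the high values, Spint2 is read in every row, and cluster 20, pluripotent-like, is the only other row with St14, Prss8 and Spint1 all above 10 CPM.

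Other genes were also ranked by how closely they follow each member. The ranks use sums of the same clusters, so they describe the levels above and are no separate support. Over 86 sums of cluster by library, which share libraries and cells, Pearson's r of log2(CPM + 10) was computed against 14043 genes. The closest were Esrp1, an epithelial splicing factor, for St14 (0.95), Rab25, an epithelial vesicle GTPase, for Spint1 (0.97), the epithelial adhesion gene Epcam for Spint2 (0.95), Kcnk1 for Prss8 (0.95), Prss8 for Tmprss2 (0.91), Mal2 for Scnn1a (0.92) and Fbp2 for Scnn1b (0.82). For Scnn1g they were Pvrl4 (0.91), Dsp (0.89), which encodes desmoplakin of the cell junctions, and Cdcp1 (0.89). For Tmprss6 they were the noncoding genes RP24-177G14.2 (0.94) and Gm15677 (0.92), followed by Otoa (0.91), which encodes otoancorin of the inner ear. Esrp1, Epcam, Dsp and Otoa were also on the marker lists that named clusters.

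Promoter windows of 250 bases before the annotated start were found for 6 of the 10 genes in a RefSeq table (GRCm38.p6). Letters for 3 factors known in epithelia and ear were searched on both strands: AACCNGTT (Grhl), TCANNTTNC (sine oculis homeobox factors) and CACCTG (the E-box bound by Snail and Zeb factors). The first 2 had no match in any of the 7 windows, Tmprss3 having 2, and are present in 1.79% and 13.6% of all 32851 windows. CACCTG is in 17.2% of all windows and was found in 3 of the 7, and it is the motif marked below because it was the one with matches. Spint2 and Scnn1g are shown as the windows with more than 1 match, with CACCTG or its reverse complement in capitals.
Spint2 (chr7:29281978-29282227, minus strand): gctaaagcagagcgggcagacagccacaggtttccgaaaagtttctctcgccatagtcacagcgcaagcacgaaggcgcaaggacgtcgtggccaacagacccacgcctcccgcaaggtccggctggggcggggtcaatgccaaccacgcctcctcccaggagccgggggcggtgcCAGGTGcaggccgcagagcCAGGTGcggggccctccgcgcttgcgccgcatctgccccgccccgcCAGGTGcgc
Scnn1g (chr7:121734229-121734478, plus strand): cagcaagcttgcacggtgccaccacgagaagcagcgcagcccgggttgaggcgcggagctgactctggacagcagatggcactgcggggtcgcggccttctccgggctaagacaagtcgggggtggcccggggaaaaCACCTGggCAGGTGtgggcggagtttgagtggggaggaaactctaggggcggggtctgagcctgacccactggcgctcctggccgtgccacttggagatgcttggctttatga
The Spint2 window holds 3 matches, beginning 74, 55 and 9 bases before the start, and the Scnn1g window 2, at 113 and 105 bases. One of the 2 Tmprss3 windows holds 1. A match is a run of letters and was not tested as a binding site.

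In KO against WT libraries, the targeted gene comes first. Otic cells had 16 Tmprss3 UMIs in WT day 25, 1 in KO day 25, 6 in WT day 35 and 2 in KO day 35, which is 6.29 CPM (3.59 to 10.2), 0.510, 1.27 and 0.248. Hair cell-like cells had 9, 0, 1 and 1, and 7 of the 19 hair cell-like cells of WT day 25 carried a UMI. Of those 19 cells, 5 remained without the highest doublet scores, and Tmprss3 was not counted in these alone. A count of 0 in the 11 cells of KO day 25 allows 3 counts, or 37.6 CPM (46.2 by the exact Poisson limit), so absence there was not measurable at this depth. UMIs in KO cells are too few to check the label, and 3′ tags outside a removed part would remain. Over all kept cells Tmprss3 had 18, 7, 8 and 5 UMIs, and the barcodes that the filter removed held 0, 1, 6 and 3 more. Simple epithelium-like cells had none in any library.

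A member was counted as higher or lower between 2 libraries when both sums held at least 20 UMIs together, the levels differed at least 2-fold and the interval of the log2 ratio left out 0. In otic cells at day 25, Tmprss6 and Tmprss2 were higher in KO and Scnn1b lower, 3 of 8 members with enough UMIs, against 4.85% of 10771 genes. At day 35 only Tmprss6 was, 1 of 8 against 5.81%. The members' median log2 ratio was 0.25 and 0.22 on the 2 days, and that of all genes 0.02 and 0.12.

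Tmprss6 stood at 8.64 CPM (22 UMIs) in otic cells of WT day 25, 26.5 (52) in KO day 25, 8.25 (39) in WT day 35 and 25.0 (202) in KO day 35. Both KO libraries were about 3-fold above both WT libraries, and no KO interval met a WT interval. On the log2 scale KO exceeded WT by 1.62 (0.87 to 2.41) on the first day and by 1.60 (1.10 to 2.14) on the second. It was seen in each otic cluster: the Otoa cluster held 8.06 CPM in WT day 25, 29.1 in KO day 25, 6.14 in WT day 35 and 25.2 in KO day 35, and the Otol1 cluster, in the same order, 6.08, 24.7, 10.3 and 25.3. The log2 ratios there were 1.85 and 2.04 in the Otoa cluster and 2.02 and 1.30 in the Otol1 cluster. The share of otic cells with a Tmprss6 UMI was 10.3%, 18.2%, 3.80% and 12.8% in WT day 25, KO day 25, WT day 35 and KO day 35, at median depths of 9288, 8092, 3620 and 5160 UMIs. With each cell thinned to 2000 UMIs, it was 0.980% of 204 cells, 5.11% of 176, 1.19% of the 922 of 973 cells of WT day 35 that were deep enough, and 4.46% of 1234. In all other cells, the share was 0.219%, 0.160%, 0.0471% and 0.238% at medians of 5980, 6278, 2994 and 4232 UMIs.

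Outside the otic clusters Tmprss6 did not pass the rule between genotypes in any class, and its counts there were low. In all other cells without the pluripotent-like cluster it had 19 UMIs in WT day 25 and 17 in KO day 25 (log2 −0.49, −1.53 to 0.53). On the later day it had 3 in WT and 10 in KO (log2 1.75, −0.21 to 4.25), too few for the rule. Simple epithelium-like cells had 13, 2, 18 and 19 UMIs (WT day 25, KO day 25, WT day 35, KO day 35), and on the later day the log2 ratio was 0.99 (−0.02 to 2.01). Keratinocyte-like cells had 3, 1, 1 and 1 UMIs. Hair cell-like cells had 7, 0, 1 and 3, too few to compare. The difference between the otic and the other classes was itself not tested.

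Other markers differed between KO and WT libraries in the same otic clusters, the pluripotent ones at day 35 only. The summed level of 13 fibroblast markers in the Otoa cluster was 1053 CPM (WT day 25), 1435 (KO day 25), 1033 (WT day 35) and 1486 (KO day 35). In the Otol1 cluster it was 1130, 1848, 859 and 1330, and at most 1 of the 13 was at 0 in any of these sums. The sum of 8 pluripotent markers was 66.8 CPM in KO day 35 in the Otoa cluster and 28.4 in the Otol1 cluster, against at most 2.69 in the other libraries, where 5 or 6 of the 8 were at 0 in the Otoa cluster. The fibroblast-like clusters themselves held Tmprss6 at 0.447 and 0.254 CPM and the pluripotent-like cluster at 0.370 CPM. Their part in the Tmprss6 difference was not tested beyond these values.

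Tmprss2 in otic cells had 26, 45, 44 and 86 UMIs, or 10.2, 23.0, 9.31 and 10.7 CPM, in WT day 25, KO day 25, WT day 35 and KO day 35. Only the KO day 25 library was high, with a log2 ratio of 1.17 (0.44 to 1.92). Most of it lay in the Otoa cluster, which supplied 40 of those 45 UMIs. Within that cluster Tmprss2 was at 16.1 CPM in WT and 31.5 in KO (log2 0.97, 0.01 to 2.03), under 2-fold, and in the Otol1 cluster at 8.78 and 8.22. Counted by cluster at day 25, Tmprss6 alone was higher, 1 of 6 members in the Otoa cluster (background 5.12%) and 1 of 6 in the Otol1 cluster (6.11%).

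Scnn1b in otic cells had 26, 9, 55 and 48 UMIs, or 10.2, 4.59, 11.6 and 5.95 CPM. Both KO libraries were below both WT libraries, by −1.15 (−2.43 to −0.01) on the log2 scale at the earlier day and −0.97 (−1.56 to −0.38) at the later, the second just under 2-fold. The Otol1 cluster supplied 26 of 26, 5 of 9, 50 of 55 and 35 of 48 of these UMIs, and its share of otic cells differed between the libraries. Within that cluster the day 25 level was 17.6 CPM in WT and 8.22 in KO (log2 −1.10, −2.83 to 0.31), and the day 35 level 19.7 and 9.93 (log2 −0.99, −1.66 to −0.34). The direction was the same on both days, while the day 25 interval, from 26 and 5 UMIs, held 0.

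In the Otoa cluster of day 35, 3 of 7 members were higher in KO, where 11.1% of 10837 genes were called. These were Tmprss6, Prss8 (35.8 and 73.4 CPM, log2 1.04, 0.66 to 1.43) and Scnn1a (6.14 and 15.1 CPM, log2 1.30, 0.40 to 2.32). In the same cells the sum of 22 otic markers was 2728 CPM in WT and 4777 in KO, with 2 at 0 in each, and that of 12 skeletal muscle markers 687 and 226, with none at 0. Their part was not tested. In the Otol1 cluster of that day Tmprss6 alone was, 1 of 8 (background 4.69%), with Prss8 at 61.6 and 59.0 CPM and Scnn1a at 22.1 and 19.6. St14 and Spint1 differed little between genotypes in otic cells: St14 was at 32.2, 42.9, 33.6 and 31.5 CPM and Spint1 at 54.2, 64.3, 74.7 and 87.3 (WT day 25, KO day 25, WT day 35, KO day 35). The St14 difference of day 25 lay in the Otol1 cluster, at 33.1 and 57.5 CPM (log2 0.80, 0.13 to 1.45), against 36.3 and 38.5 in the Otoa cluster. Spint2, the most counted member, was at 899, 982, 956 and 1182 CPM, with log2 ratios of 0.13 (0.04 to 0.22) and 0.31 (0.26 to 0.36), small beside the 2-fold limit though counting error leaves out 0.

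**Figure D3:**
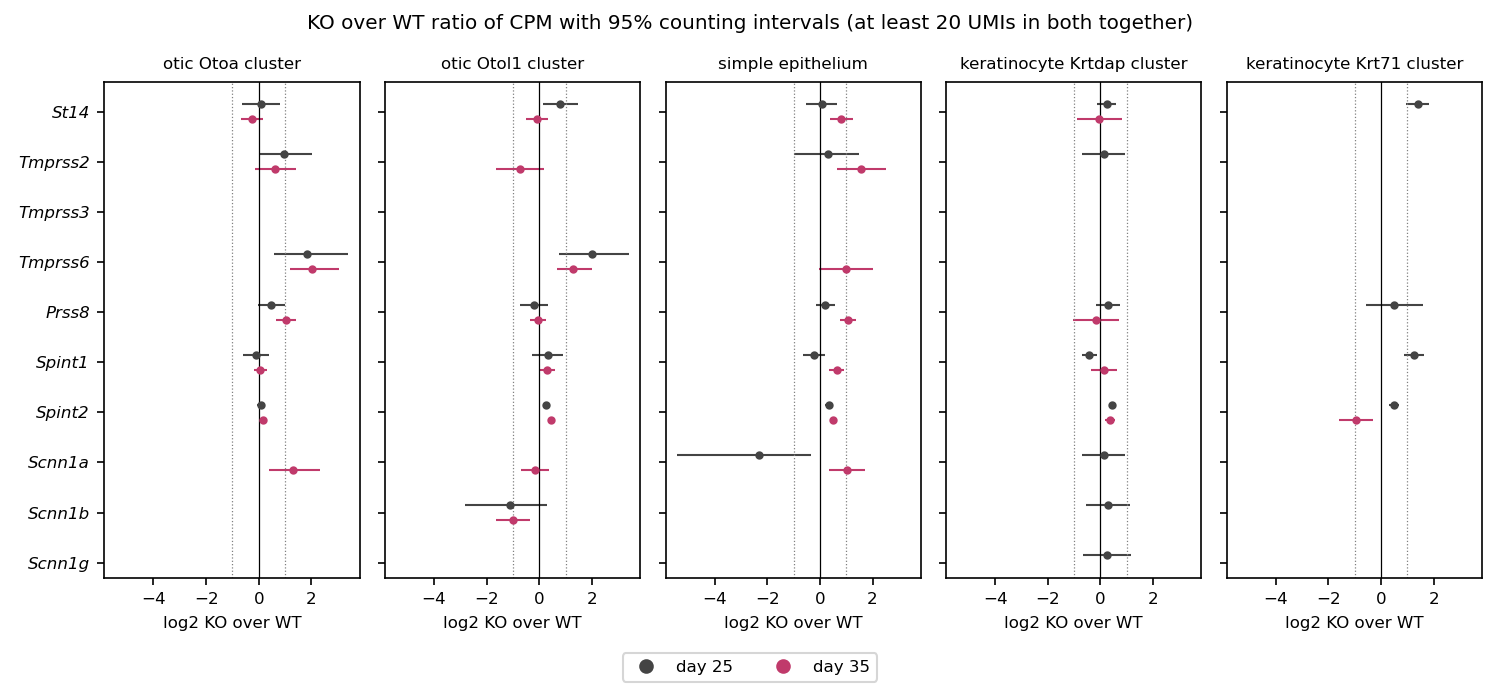
Points are log2 ratios of KO to WT CPM with 95% counting intervals, at day 25 (grey) and day 35 (red), for members with at least 20 UMIs in both libraries together, and dotted lines mark 2-fold. Tmprss6 lies to the right of 0 on both days in the Otoa and Otol1 clusters, and Scnn1b to the left in the Otol1 cluster.

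Keratinocyte-like cells had no member past the rule on either day, 0 of 8 at day 25 (background 4.95%) and 0 of 5 at day 35 (9.04%). St14 came nearest, at 40.0 CPM in WT day 25 and 72.6 in KO day 25 (log2 0.86, 0.60 to 1.12), against 38.3 and 34.2 on the later day. The day 25 difference lay in the Krt71 cluster, where St14 was at 45.9 CPM (35.3 to 58.8) in 123 WT cells and 120 (102 to 141) in 116 KO cells, log2 1.39 (0.96 to 1.84), against 38.2 and 44.9 in the Krtdap cluster. A UMI of St14 was present in 39 of the WT and 72 of the KO cells. Spint1 was higher in the same KO cells, at 62.7 and 149 CPM (log2 1.24, 0.87 to 1.63), while in the Krtdap cluster it was lower in KO (83.4 and 62.1 CPM, log2 −0.42, −0.72 to −0.14). In the same Krt71 cells the sum of 18 keratinocyte markers was 15159 CPM in WT and 8307 in KO, and the fibroblast marker sum 1064 and 2563. Their part was not tested. The 8 and 24 Krt71 cells of day 35 were too few to follow this further.

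Simple epithelium-like cells gave 1 of 6 members past the rule at day 25 (background 5.84%) and 3 of 7 at day 35 (6.62%). Scnn1a was at 13.5 CPM (33 UMIs) in WT day 25, 2.71 (2 UMIs) in KO day 25, 12.1 (37) in WT day 35 and 24.6 (40) in KO day 35. It was thus lower in KO on the first day (log2 −2.32, −5.42 to −0.35) and higher on the second (1.03, 0.35 to 1.71), the first value resting on 2 UMIs in 84 cells. At day 35 Prss8 was also higher in KO (57.4 and 120 CPM, log2 1.06, 0.76 to 1.37), as was Tmprss2 (5.87 and 17.2 CPM, log2 1.55, 0.65 to 2.49). At day 25 Prss8 was at 102 and 118 CPM, and the WT library of day 35 was the lowest of the 4 for Prss8, Tmprss2, St14, Spint1 and Spint2 in this class. In it the fibroblast marker sum was lowest too, at 711 CPM against 1233 in KO day 35, where the pluripotent marker sum was 28.3 against 0.326. Their part was not tested.

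**Figure D4:**
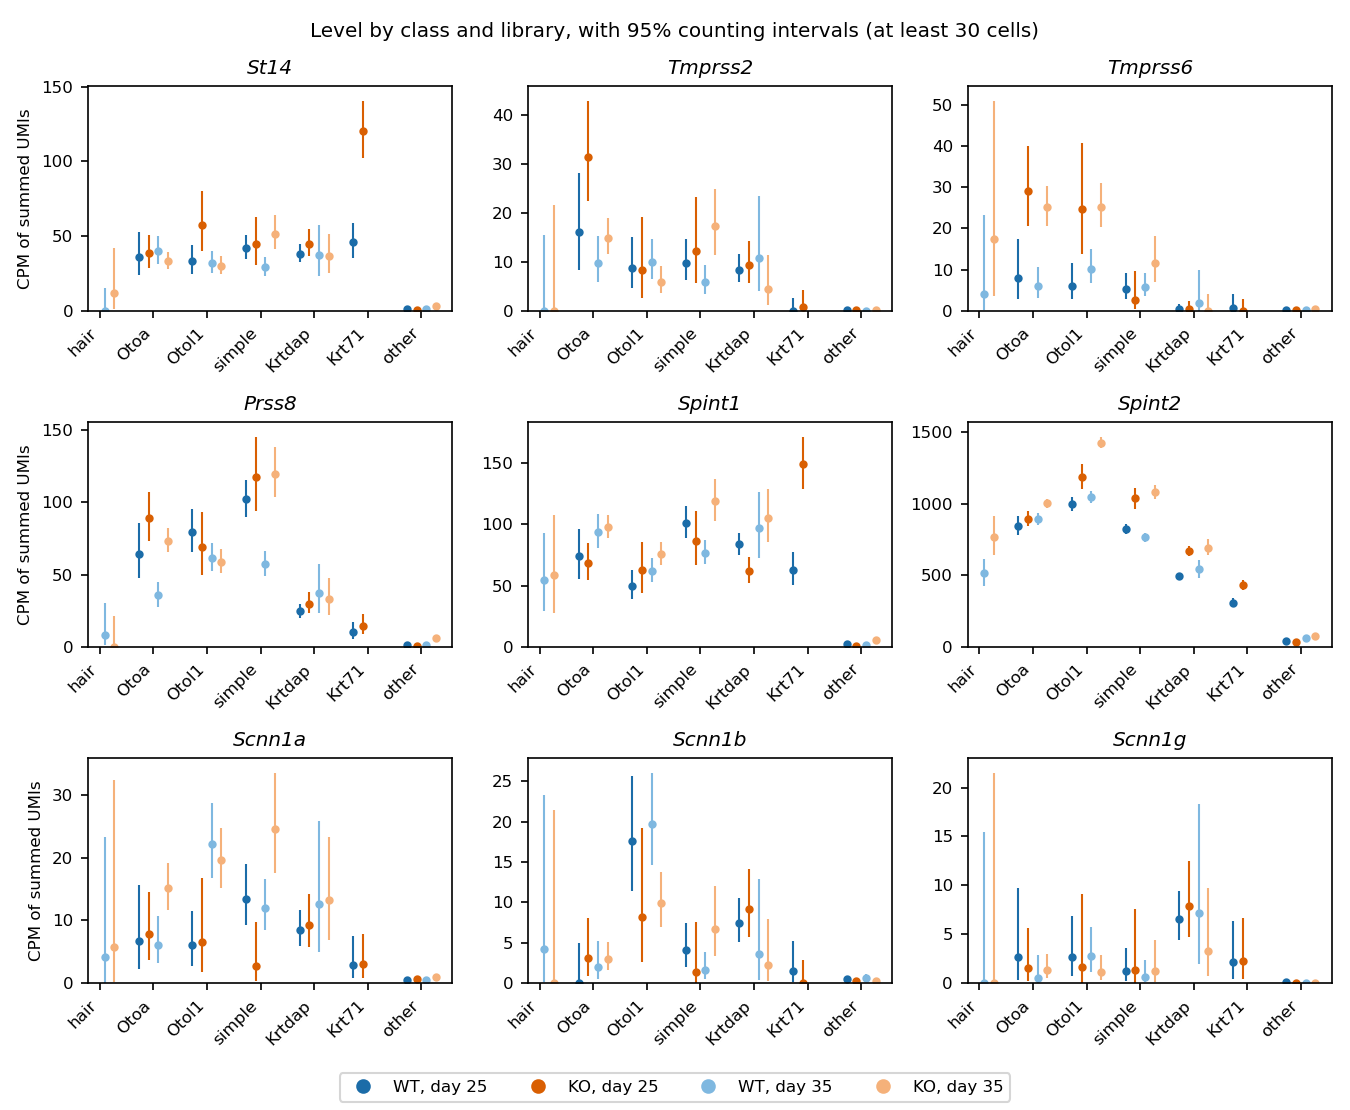
Each panel is a gene (Tmprss3, with too few UMIs, is left out), the horizontal axis gives the epithelial clusters and all other cells, and points give CPM of summed UMIs with 95% counting intervals for the 4 libraries where a class has at least 30 cells. Tmprss6 is high in both KO libraries in the otic clusters, Scnn1b in the WT libraries of the Otol1 cluster, and St14 in the KO day 25 library of the Krt71 cluster.

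Whole-library sums, in which fewer cells of a type and less RNA per cell cannot be told apart, gave another picture. At day 25 Tmprss3, Scnn1b and Scnn1g were lower in KO, 3 of 10 against 7.24% of all genes. The KO library of that day had 593 cells in the 3 epithelial classes, and WT 1080. Scnn1g was at 0.630 CPM in the whole WT library and 0.296 in KO, yet stood at 5.54 and 5.86 CPM in keratinocyte-like cells (WT, then KO). On the later day Tmprss6 alone was higher, 1 of 9 (background 12.6%), at 1.97 and 6.11 CPM. In cells outside the 3 epithelial classes, Prss8, Spint1 and St14 were higher in KO at day 35, at log2 2.41, 1.56 and 1.48, and Scnn1b was lower (0.667 and 0.218 CPM), 4 of 6 members where 16.0% of 14939 genes passed. Without the pluripotent-like cluster, which held 134, 120 and 59 of their 169, 155 and 82 UMIs, the ratios were 0.44 (−0.34 to 1.23), −0.29 (−0.97 to 0.39) and −0.05 (−0.94 to 0.84). Spint2, at 0.19 (0.09 to 0.29) with that cluster, was at −0.14 (−0.25 to −0.03) without it. Scnn1b was at −1.31 (−2.97 to 0.13) without it, from 15 UMIs in WT and 6 in KO, and no longer passed the rule. Scnn1a did pass without it, higher in KO at 1.068 (0.022 to 2.195), from 12 UMIs in WT and 25 in KO.

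Between days, the otic cells of both genotypes had more Scnn1a at day 35: 7.07 and 14.6 CPM in WT (log2 1.05, 0.28 to 1.88) and 7.14 and 16.9 in KO (log2 1.24, 0.44 to 2.15). In the Otol1 cluster the log2 ratio was 1.86 in WT and 1.57 in KO, the latter from 4 UMIs at day 25. In the Otoa cluster Scnn1a was at 6.71, then 6.14 CPM in WT and 7.86, then 15.1 in KO (log2 0.94, −0.03 to 2.07), neither past the rule. In WT otic cells 2 of 9 members passed the rule, Scnn1a higher and Tmprss3 lower, against 16.6% of genes. The Tmprss3 value rested on 16 and 6 UMIs, and 83 hair cell-like barcodes removed from WT day 35 held 5 more. In KO otic cells 2 of 8 passed, Scnn1a higher and Tmprss2 lower, against 9.81%. Tmprss6 was level between days in each genotype, with log2 ratios of −0.07 (−0.86 to 0.76) in WT and −0.08 (−0.53 to 0.39) in KO. Keratinocyte-like cells gave 0 of 8 in WT (background 12.8%) and 1 of 8 in KO (10.2%), where St14 was at 72.6 CPM, then 34.2. The Krt71 cluster made up 116 of 333 keratinocyte-like cells in KO day 25 and 24 of 167 in KO day 35, and within the Krtdap cluster St14 was at 44.9 and 36.6 CPM. Within the Krt71 cluster it was at 120 CPM (158 UMIs), then 24.1 (5 UMIs), and the part of the cell shares in the class value was not tested.

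The lists of pathway genes set these members among their neighbours. Of 21 other membrane-anchored serine proteases in the files, 8 had at least 100 UMIs, of which 4 were highest in keratinocyte-like cells, 2 in simple epithelium and 1 in otic cells. Hpn (hepsin) was read in the same cells as Prss8, at 69.2 CPM in otic cells and 115 in simple epithelium, and Prss41 at 22.5 CPM was otic. In KO against WT otic cells 1 of 3 with enough UMIs was higher at day 25 (Prss22, 5.11 and 13.8 CPM) and 0 of 4 passed the rule at day 35. In keratinocyte-like cells Tmprss11a was higher (2.43 and 8.10 CPM) and Tmprss4 lower (12.3 and 4.75 CPM) in KO day 25, of 8 with enough UMIs. On the later day Tmprss4 was higher (3.33 and 21.6 CPM, from 2 and 24 UMIs), as were Tmprss11b and Tmprss11d, 3 of 7 of the list (background 9.04%). In the same cells the sum of 18 keratinocyte markers was 8466 CPM in WT and 20302 in KO. Its part was not tested.

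Among 14 substrates and receptors of the cascade, Epcam, a known matriptase substrate, was at 1105 CPM in otic cells. F2rl1, the protease-activated receptor PAR2, was highest in simple epithelium, at 33.5 CPM. In otic cells none of 5 passed the rule in KO at day 25, and 1 of 6, Plaur, was lower at day 35. All 5 secreted epidermal proteases with at least 100 UMIs, led by Klk8 at 78.6 CPM, were highest in keratinocyte-like cells. The single one with enough UMIs in otic cells, Klk8, was lower in KO at day 25 (9.43 and 1.53 CPM). In keratinocyte-like cells Klk7 was higher in KO at day 25 (9.18 and 30.7 CPM).

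Of 6 other inhibitors with enough UMIs in otic cells, none passed at day 25, and Slpi, the secretory leukocyte protease inhibitor, was lower in KO at day 35 (580 and 131 CPM). In keratinocyte-like cells Spink5, which restrains epidermal kallikreins, was higher in KO at day 25 (4.68 and 34.9 CPM), and Spink1 had 61 UMIs in WT and 0 in KO. Of the sodium channel regulators and transporters, 0 of 14 passed in otic cells at day 25 and 1 of 16 at day 35, Fxyd6, an Na,K-ATPase modulator (108 and 277 CPM). Between days in otic cells, 2 of 16 of this list were higher and 1 lower in WT (background 16.6%). In KO, 2 of 16 were higher (background 9.81%). Sgk1, a kinase that keeps sodium channels at the surface, was higher on the later day in otic cells of both genotypes. Its level there was 28.7, then 69.0 CPM in WT and 21.9, then 66.4 in KO. It was also higher on the later day in keratinocyte-like and simple epithelium-like cells of both genotypes. Sgk1 was lower in KO keratinocyte-like cells on both days (49.0 and 19.3, then 110 and 50.5 CPM).

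Of the 11 epithelial regulators, 4 were highest in otic cells and 7 in keratinocyte-like cells, and in otic cells 0 of 8 passed the rule between genotypes on either day. Grhl2 stood at 13.3 CPM in otic and 10.4 in keratinocyte-like cells. Of 12 junction and keratin genes, Cldn4, which encodes claudin-4, alone passed in otic cells, and was lower in KO on both days (278 and 136 CPM, then 653 and 318). The medians of these lists in otic cells ranged from −0.31 to 0.20 on the log2 scale, leaving out the secreted epidermal proteases and the membrane-anchored proteases at day 25, with 1 and 3 genes.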

How the data were processed

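The authors deposited UMI counts per gene and barcode as whole numbers, without normalization, per the file contents. Cell Ranger 2.1.0, Seurat 2.3.1, R 3.5.1, bcl2fastq and the builds mm10 and GRCm38 stand in the submitters' processing notes without a role. Gene identifiers were matched to GENCODE M21 (27645 of 27998 found), and symbols are the files' own.

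Kept barcodes of the 4 libraries were clustered together (scanpy 1.11.5, leidenalg 0.10.2) on 2000 variable genes, without the 10 members, non-marker pathway genes and mitochondrial, ribosomal, imprinted and sex-linked genes, with 30 components, 20 neighbours and resolution 1.0. A cluster was named when at least 3 markers of a set were among its 50 leading genes and 2 among the first 20, and no other set had more in the first 10, and 1 cluster stayed unnamed because its leading genes went against its name. UMIs were then summed by class and library. In ratios, 3 counts stood in for a sum of 0, and no ratio is given where both sums are at most 3. Doublets were ranked by a score from simulated doublets and were kept. Interval code was tested on simulated data. All 10 members are named. Pathway genes were named from 7 lists by UMI number and by the call rule. Members, lists, markers and naming thresholds were chosen with earlier results of these data known. Alternatives tried were other barcode filters (none, or at least 1000 genes and at most 5% mitochondrial UMIs), clusterings, marker gates, UMI minimums, means over cells and thinning.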

Additional observations from a re-analysis of the deposited data

Results flagged for a closer look

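Several members had KO to WT ratios in opposite directions on the 2 days or in different cells, with counting intervals that left out 0. None of these differences between differences was tested. In whole libraries the log2 ratio of KO to WT was below 0 at day 25 and above 0 at day 35 for St14 (−0.40 and 0.32), Tmprss2 (−0.44 and 0.52), Prss8 (−0.91 and 0.73), Spint1 (−0.99 and 0.43), Spint2 (−0.51 and 0.39) and Scnn1a (−0.68 and 0.48). The median log2 ratio of all genes was −0.04 at day 25 and 0.23 at day 35 in whole libraries. In cells outside the epithelial classes it was −0.03 and 0.26. The day 35 values are thus to be read against an upward shift of the genes as a whole. The 3 epithelial classes held 11.1% of cells in WT day 25, 5.30% in KO day 25, 22.1% in WT day 35 and 24.9% in KO day 35. Outside the epithelial classes the same turn was seen for St14 (−0.81 and 1.48), Prss8 (−0.97 and 2.41), Spint1 (−1.91 and 1.56) and Spint2 (−0.10 and 0.19). Without the pluripotent-like cluster the day 35 values were −0.05, 0.44, −0.29 and −0.14, so it was seen for Prss8 only, with an interval that held 0. Within a class it was seen for Scnn1a in simple epithelium-like cells (−2.32 and 1.03) and for Spint2 in the Krt71 cluster (0.48 and −0.96), the latter with 8 WT cells at day 35.

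On 1 day, classes differed in direction for Spint1 at day 25 (−0.42 in the Krtdap and 1.24 in the Krt71 cluster) and for Scnn1b at day 35 (−0.99 in the Otol1 cluster and 2.05 in simple epithelium, the latter from 5 and 11 UMIs). Spint2 at day 35 was −0.96 in the Krt71 cluster, against 0.58 in hair cell-like cells, 0.17 in the Otoa cluster, 0.45 in the Otol1 cluster, 0.36 in the Krtdap cluster and 0.50 in simple epithelium.

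Barcodes that the filter removed held members above the level of kept barcodes. In the 195 removed from WT day 25 these were St14 (13.7 CPM), Tmprss2 (4.41), Spint2 (158) and Scnn1a (6.87). In the 117 from KO day 25 they were St14 (15.3), Tmprss2 (4.38), Spint2 (117), Scnn1a (5.84) and Scnn1b (2.92). In the 1084 from WT day 35 they were St14 (15.4), Prss8 (26.9), Spint1 (32.7), Spint2 (376), Scnn1a (12.1), Scnn1b (10.7) and Scnn1g (2.67). The barcodes removed from WT day 35 included 83 hair cell-like ones with 5 Tmprss3 UMIs, more hair cell-like barcodes than the 60 kept. The 18 such barcodes removed from KO day 35 held 3.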

How the results depend on the processing

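Of 3 called members in otic cells at day 25, marker gates left 1, and the stricter filter or a minimum of 50 UMIs left 2. A minimum of 10 UMIs gave 4. For day 35 the count of 1 became 3 with no filter on barcodes and 2 at resolution 2.0 or without the highest doublet scores. Between days in WT otic cells, the 2 became 1 with the stricter filter, at resolution 0.5, without the highest doublet scores or at a minimum of 50 UMIs, and 6 with marker gates. In KO the 2 became 1 with the stricter filter and 7 with marker gates. In keratinocyte-like cells the 0 at day 25 became 1 at resolution 2.0 or with each library clustered alone, and 2 with marker gates. Between days the 0 in WT became 1 with no filter, with the stricter filter, at resolution 2.0, with libraries alone and with marker gates. The 1 in KO became 2 at resolution 2.0, with libraries alone and with marker gates. In all cells the 3 of day 25 became 1 without the highest doublet scores. They became 2 with the stricter filter or a minimum of 50 UMIs, and 4 with no filter. The 1 of day 35 became 2 with no filter or the stricter filter. The cause was not tested. The gates took in far more cells. No cluster was named hair cell-like with the stricter filter, or at day 25 with each library clustered alone.

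Tmprss6 in otic cells stayed higher in KO under all 7 of these cell and cluster settings, at log2 0.90 to 2.14 for day 25 and 0.74 to 2.00 for day 35, and passed the rule in 6 of 7 on each day. Scnn1b at day 25 ran from −1.94 to −1.19. Tmprss2 between days in KO otic cells was reversed with marker gates, at 0.29. Added after seeing the data, leaving the pluripotent-like cluster out of all other cells reversed St14 (−0.052) and Spint1 (−0.29) at day 35 and turned Spint2 from 0.19 to −0.14. In the same cells Scnn1b then no longer passed the rule, and Scnn1a did. No fit that pairs the genotypes by day was run. Scnn1a between days in WT otic cells ran from 0.12 to 2.31 and passed in 5 of 7 settings. Tmprss3 in the same comparison ran from −2.57 to −0.22 and passed in 4 of 7. Means over cells give no counts for the call rule and were run for levels and ratios only.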
